A study of Mus musculus with 22 samples.

Results

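The alpha-globin locus of the mouse comprises the alpha-like globin genes and the genes that share their regulatory domain. The 10 genes described here were Il9r, Snrnp25, Rhbdf1, Mpg, Nprl3, Hba-x, Hba-a1, Hbq1b, Hba-a2 and Hbq1a, of 21853 protein-coding genes. They were chosen by position, with earlier results of these data known. The interval ran from the first base of Il9r to the last base of Hbq1a on chromosome 11 with 30 kb added on each side (mm10, chr11:32157541-32330873, 173.3 kb). It held 7 of 16244 H3K4me3 regions, 10 of 24299 H3K27ac regions, 13 of 33193 CTCF peaks at 0 h and 13 of 41473 CTCF peaks at 24 h. A region is the union of overlapping peaks over the 10 lists of a mark. No other protein-coding gene lay in the interval, and its other annotated gene, the processed pseudogene Gm12109, had no peak of either histone mark.

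G1E-ER4 (G1ER) cells are 1 clone derived from Gata1-null mouse erythroid progenitors (Gata1 encodes a master transcription factor of the lineage). They carry GATA1 fused to the estrogen receptor, which β-estradiol activates. All groups were this line, grown with stem cell factor and erythropoietin. The 22 peak lists came from untreated cells (0 h) or from cells 2, 6, 12, or 24 h into β-estradiol, with 2 lists per time point for H3K4me3 and for H3K27ac and 1 list at 0 h and at 24 h for CTCF.

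In red blood cell precursors, alpha-globin joins beta-globin and heme to form hemoglobin. Hba-a1 and Hba-a2 encode adult alpha-globin, Hba-x encodes the embryonic zeta chain, and Hbq1b and Hbq1a encode theta-like chains. The erythroid enhancers of the genes lie upstream of Hba-x, several of them inside introns of the neighbour Nprl3, and sites bound by the loop anchor protein CTCF flank the domain. Of the histone marks, H3K4me3 is found chiefly at promoters in use, and H3K27ac at promoters and enhancers in use.

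The gene order and strands in GENCODE M21 set out the positions used throughout. Il9r (chr11:32187541-32200279, minus strand) encodes the receptor for interleukin 9. Snrnp25 (chr11:32205415-32208984, plus strand) encodes a protein of the minor spliceosome. Rhbdf1 (chr11:32209585-32222300, minus strand) encodes an inactive rhomboid protein. Nprl3 (chr11:32225628-32267707, minus strand) encodes a subunit of the GATOR1 complex, which restrains mTORC1. Mpg (chr11:32226505-32232700, plus strand) encodes a DNA repair glycosylase, and it overlaps the 3′ part of Nprl3 on the other strand. The globin genes all lie on the plus strand, with Hba-x at chr11:32276400-32278116, Hba-a1 at chr11:32283511-32284465, Hbq1b at chr11:32286965-32287784, Hba-a2 at chr11:32296489-32297298 and Hbq1a at chr11:32300069-32300873. Distances below run from the Hba-a1 start, with negative values towards Il9r.

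The promoters of the 2 adult genes are shown because they are near copies of each other. Each run is the 150 bases before the RefSeq start (GRCm38.p6, plus strand, chr11:32283522-32283671 and chr11:32296342-32296491). The RefSeq starts differ from the GENCODE starts used for distances and windows. The Hba-a1 run lies inside the GENCODE gene, which begins at 32283511, and the Hba-a2 run ends just past its GENCODE start at 32296489. RefSeq promoters were matched for 9 of the 10 genes, all but Rhbdf1. Capitals mark matches on either strand to CCAAT, to the CACCC box and to TATAA, none of which overlapped another.
Hba-a1: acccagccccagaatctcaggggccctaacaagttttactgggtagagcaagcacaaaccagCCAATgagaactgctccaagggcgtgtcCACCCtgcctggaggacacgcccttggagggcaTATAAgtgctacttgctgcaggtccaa
Hba-a2: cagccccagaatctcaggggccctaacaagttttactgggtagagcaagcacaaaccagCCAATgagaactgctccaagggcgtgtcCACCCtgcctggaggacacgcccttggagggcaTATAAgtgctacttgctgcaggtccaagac
Shifted by 3 bases, the 2 runs were identical at 147 of 147 positions. The 2 theta promoters were identical at 146 of 150 positions, whereas Hba-a1 and Hba-x matched at 51 of 140 positions at the best shift. Over the 150 bases before the start, CCAAT was found in 24.5%, CACCC in 37.4%, and TATAA in 14.2% of 32851 RefSeq promoters, and AGATAA, which neither adult gene had, in 5.6%.

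These copies limit what peaks over the globin genes can show. The study kept only reads with a single position in the genome, and its kit read 75 bases. Of the 75-base stretches within the Hba-a1 gene, 91.5% also occur elsewhere on the assembled chromosomes, against 89.8% within Hba-a2. The share was 21.3% for Hbq1b, 21.8% for Hbq1a, and 0.0% for Hba-x. Over the 4 kb promoter windows it was 36.0% for Hba-a1 and 35.8% for Hba-a2, and at most 0.3% for Il9r, Snrnp25, Rhbdf1, Mpg, Nprl3 and Hba-x. Peak lengths at the adult and theta genes are therefore uncertain, since they rest on the unique sequence around and between the copies.

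The 3 guides that the study designed against the Il9r promoter are shown because the one called change of the locus lay at this gene. They are given in lower case with the 3 genome bases that follow on the guide's strand in capitals, and all 3 matched the genome exactly at their listed positions, 311 to 316 bases upstream of the Il9r start.
Il9r guide at chr11:32200524-32200543, plus strand: atcctcccgggcaatgccacTGG
Il9r guide at chr11:32200529-32200548, minus strand: acccagtggcattgcccgggAGG
Il9r guide at chr11:32200525-32200544, plus strand: tcctcccgggcaatgccactGGG
The guides overlap one another and lay inside the H3K4me3 and the H3K27ac peak of Il9r in all 10 lists of each mark. The study took its promoter targets from the genes whose expression rose or fell most significantly during this differentiation. Which of these sets held Il9r is not given here.

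The lists held 12925 to 14452 peaks for H3K4me3, 17247 to 18333 for H3K27ac, and 33193 (0 h) and 41473 (24 h) for CTCF. Without read counts in the lists the depth of sequencing is unknown, and peak scores cannot be compared between lists. In bulk cells, a mark lost from some cells and a mark lowered in every cell cannot be told apart. For cell identity, H3K4me3 covered the promoter window of 9 of 10 erythroid markers in at least 8 of the 10 lists, with Tal1 at 0, and of none of 4 B cell, 4 T cell and 4 fibroblast markers. Of 6 myeloid markers, 1 (Spi1) had it in all 10 lists and the other 5 in none. Of 6 mast cell markers, 3 had it in 7 to 9 lists and 3 in none: Cpa3 in both lists at 0 h and neither at 24 h, Ms4a2 in both and in 1, and Kit, also made by early erythroid progenitors, in both lists at each of these times. The part of these markers in the results below was not tested. The H3K27ac windows of 5 of the 10 erythroid markers were at 0, and the window of Gata1 had no peak of either mark in any list.

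**Figure D1:**
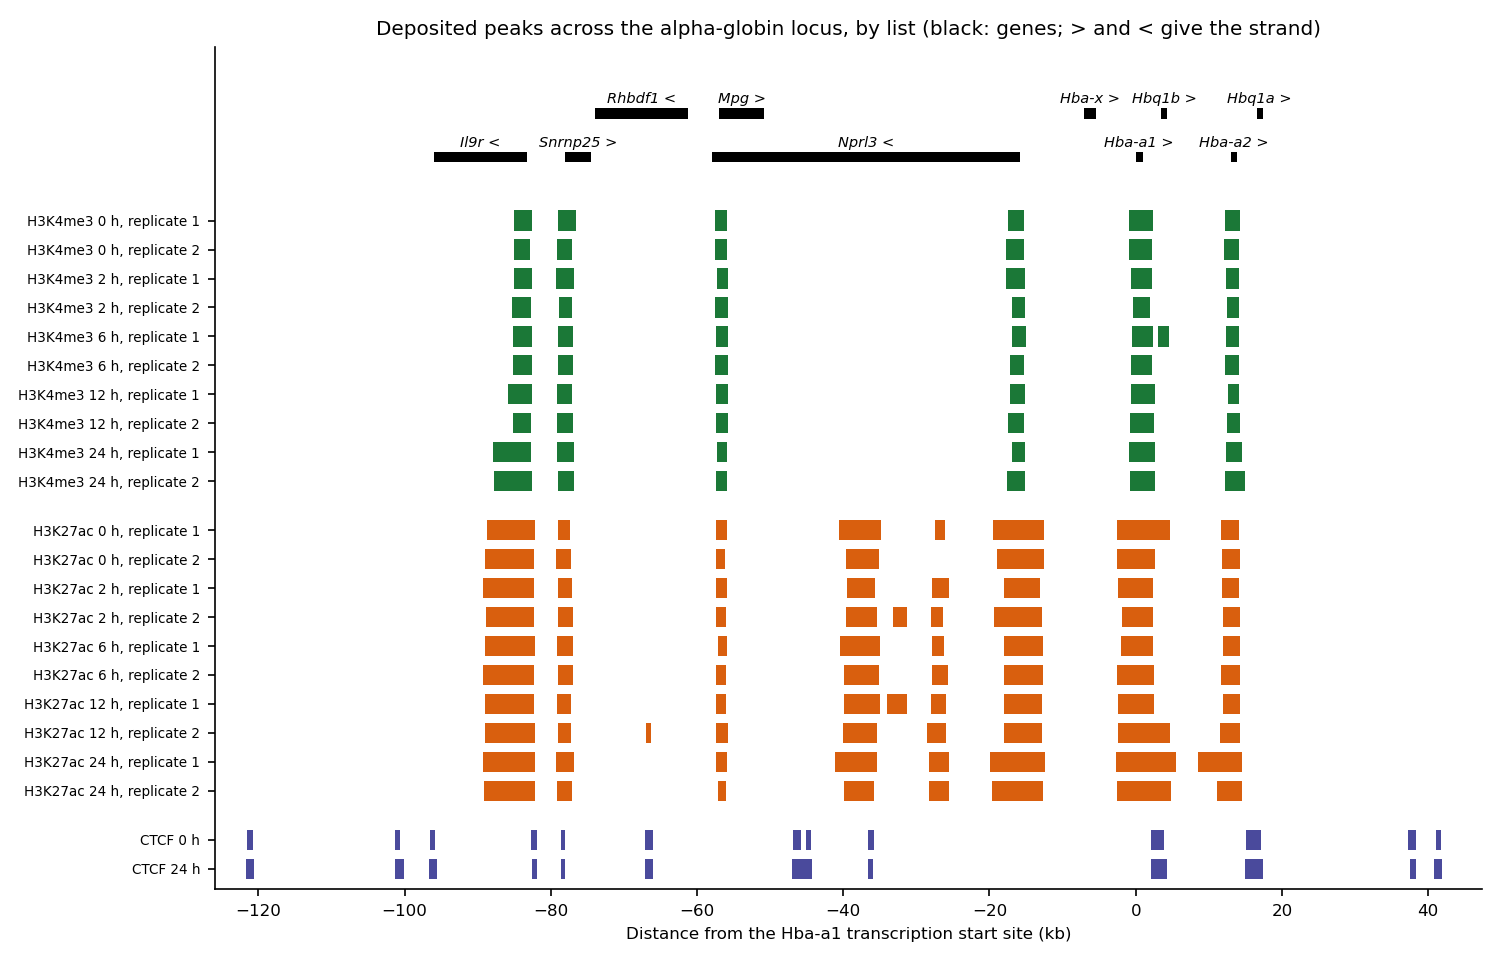
Peaks of each list (rows, coloured by antibody) along the locus, as distance from the Hba-a1 transcription start site in kb, with the 10 genes in black above. The same promoters were marked in nearly every row, Rhbdf1, Hba-x and the 2 theta genes had little or nothing at their starts beyond the spread of the Hba-a1 peak over Hbq1b, and the Il9r H3K4me3 peak was longest in the 2 lists at 24 h.

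The first question was which promoters of the locus carried the marks before GATA1 was activated, and whether that set changed. Both adult alpha-globin genes had both marks in all 10 lists, untreated cells included. Peaks also covered Il9r, Snrnp25, Mpg and Nprl3 in all 10 lists of both marks. The window within 2 kb of the Hbq1b start was covered in all 10 lists of both marks as well, mostly by the end of the Hba-a1 peak. In contrast, the Hba-x and Rhbdf1 windows had no peak in any of the 20 histone lists. The Hbq1a window was reached by 1 H3K4me3 list (413 bp, 24 h, replicate 2) and 1 H3K27ac list (18 bp, 24 h, replicate 1), in both cases the edge of the Hba-a2 peak. Thus 7 of 10 promoters were covered in all 10 lists, and the same 7 for each mark, with Hbq1b counted mostly through the Hba-a1 peak. The share of all protein-coding promoters covered in all 10 lists was not counted.

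As regions, 6 of 7 for H3K4me3 and 7 of 10 for H3K27ac had a peak in all 10 lists, where the share over the genome was 70.8% and 54.4%. No region of the locus was gained or lost by 24 h (peaks in both lists of one time and neither of the other), against 4.33% of all H3K4me3 regions and 7.61% of all H3K27ac regions. The covered length per list summed over the interval was 13.8 ± 0.1 kb (SD, n = 2) at 0 h and 16.9 ± 0.7 kb at 24 h for H3K4me3. For H3K27ac it was 31.2 ± 3.5 kb and 37.8 ± 4.6 kb. The order was the opposite without peaks under the pooled median score of each mark, with 6.2 and 5.78 kb for H3K4me3 and 12.2 and 7.26 kb for H3K27ac. That cut is the same score for all lists of a mark, and scores cannot be compared between lists. The opposite order is therefore not read as a change in marking. Since the smallest p that an exact permutation test allows for 2 against 2 is 0.333, lengths were tested with limma across all regions. Where the order of lists is described below, the share of all regions or promoters with the same order was not counted.

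The second question was which peaks changed in length during differentiation. The Il9r promoter region was the one region of the locus that passed the test, and it lengthened into the gene. Among the 6 of 7 H3K4me3 regions with peaks in at least 2 lists, 1 was called at 24 h against 0 h, where 1.58% of all 14862 regions tested were called and 0.471% were called longer. The median log2 difference was 0.08 over the 6 regions and -0.04 over all regions tested. The same region was the one called in the test for a change at any time point, where the share over the genome was 1.25%.

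The Il9r H3K4me3 peak was 2397 and 2303 bp long at 0 h, 2512 and 2571 bp after 2 h, and 2527 and 2596 bp after 6 h. At 12 h it was 3203 and 2476 bp, and at 24 h 5309 and 5092 bp. Both lists at 24 h were longer than the other 8, and 1 of the 2 lists at 12 h lay between. The mean length came to 2350.0 ± 66.5 bp in untreated cells and 5200.5 ± 153.4 bp after 24 h (SD, n = 2), a difference of 1.08 ± 0.10 (SE) in log2(covered bp + 200). The adjusted p was 0.0033 by limma with Benjamini-Hochberg adjustment, and 0.014 for a change at any time point. The latter call was lost without either of the 2 lists at 24 h, while the former held without any 1 list. Ordered by signed difference from the largest lengthening down, the region ranked 219 of 14862.

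The growth was one-sided. Upstream of the Il9r start the peak reached 681 and 504 bases at 0 h and 642 and 676 bases at 24 h. Downstream, into the gene, it reached 1715 and 1798 bases at 0 h, 2511 and 1881 bases at 12 h, and 4666 and 4415 bases at 24 h. The stretch covered in both lists at 24 h and in none of the other 8 was 1904 bp long (chr11:32195807-32197710) and wholly intronic. None of the 75-base stretches in the region occurs elsewhere in the genome.

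H3K27ac already covered this stretch at 0 h. The Il9r H3K27ac peak was 6540 and 6797 bp long at 0 h, 6981 and 6594 bp after 2 h, 6797 and 6919 bp after 6 h, 6682 and 6773 bp after 12 h, and 7113 and 6920 bp after 24 h. The 2 times of 0 and 24 h did not overlap but differed by only 0.07 ± 0.07 (SE) on the log2 scale, which did not pass the test (adjusted p = 0.60, limma). The H3K4me3 peak spanned 33.9% to 36.7% of the H3K27ac peak at 0 h, 36.6% to 47.9% at 12 h, and 71.6% to 76.7% at 24 h, over the 4 pairings of lists at each time.

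The strength of the Il9r H3K4me3 peak in its own list did not follow its length. Its score stood at the 22.3 and 34.7 percentile of the list at 0 h and at the 26.3 and 27.4 percentile at 24 h, so it was among the weaker peaks throughout. When peaks under the pooled median score were left out, it was absent and no H3K4me3 region of the locus was called. In the fixed 4 kb window around the start, which ends before most of the added length, Il9r differed by 0.17 ± 0.05 (SE) and was not called (adjusted p = 0.46, limma), while with 10 kb windows (5 kb each side) it differed by 0.91 and was called (adjusted p = 0.0019).

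**Figure D2:**
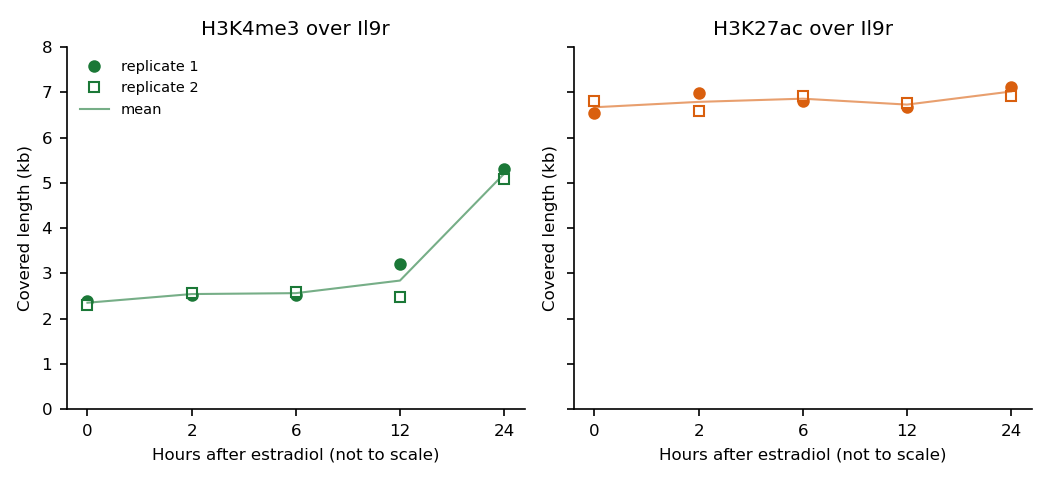
Covered length in kb of the H3K4me3 (left) and H3K27ac (right) region at the Il9r start, by hours of β-estradiol. Points are single lists (filled, replicate 1; open, replicate 2) and the line is their mean; H3K4me3 lengths were 2397 and 2303 bp before treatment and 5309 and 5092 bp after 24 h, under an H3K27ac peak of 6540 to 7113 bp in the lists of these times.

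The other H3K4me3 regions kept to the gene starts. At Snrnp25 (-77.9 kb) lengths ran from 1899 to 2438 bp over the 10 lists, with 2178.5 ± 251.0 bp at 0 h and 2262.0 ± 97.6 bp after 24 h (adjusted p = 0.93). At Mpg (-56.7 kb) they were 1738 and 1664 bp at 0 h and 1394 and 1462 bp after 24 h, the shortest 2 of the 10 lists, yet the difference of -0.22 ± 0.09 (SE) did not pass the test (adjusted p = 0.36). At Nprl3 (-16.4 kb) the 2 lists at 24 h, 1702 and 2485 bp, lay on both sides of the 0 h lists, 2166 and 2484 bp (adjusted p = 0.84). Adjusted p-values are from limma.

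At Hba-a1 the H3K4me3 peak was 3236 and 3128 bp at 0 h, 2845 and 2421 bp after 2 h, 2951 and 2861 bp after 6 h, 3316 and 3255 bp after 12 h, and 3513 and 3349 bp after 24 h. The lists at 2 and 6 h were all shorter than those at 0 h, and those at 24 h were the longest. Neither the 24 h difference (0.10 ± 0.07 SE, limma adjusted p = 0.69) nor the test over time points (adjusted p = 0.24) passed. At Hba-a2 the peak was 1954 and 2103 bp at 0 h, 1598 and 1724 bp after 12 h, and 2104 and 2802 bp after 24 h, a difference of 0.24 ± 0.12 (limma adjusted p = 0.50). A separate H3K4me3 peak at the Hbq1b start appeared in 1 list alone (1427 bp, 6 h, replicate 1).

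By promoter window, 7 of the 10 genes could be tested for H3K4me3 and 0 were called by limma at 24 h against 0 h (background 0.27% of 9982 promoters) or at any time point (0.301%). At an unadjusted p under 0.05, 2 (Il9r and Mpg) passed the first and 1 (Hba-a2) the second, where 7.67% and 6.68% of all promoters did. The median difference was 0.05 over the 7 and -0.01 over all promoters tested.

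H3K27ac showed the enhancer side of the locus. Besides the promoters of Il9r, Snrnp25, Mpg, Nprl3, Hba-a1 and Hba-a2, it covered 3 regions inside Nprl3, and a short peak in Rhbdf1 in 1 list (683 bp, 12 h, replicate 2). No H3K4me3 peak overlapped the 3 regions inside Nprl3. Of the 10 regions, 9 could be tested and 0 were called by limma at 24 h against 0 h, where 6.32% of all 21011 regions were called and 3.3% were called longer, and 0 at any time point, where 5.61% were. At an unadjusted p under 0.05, 3 passed at 24 h against 0 h (Snrnp25, the nearer Nprl3 region, and Hba-a2), where 21.2% of all regions did. In the test over time points 3 did (the Nprl3 start, Hba-a1 to Hbq1b, and Hba-a2), and the share of all regions was not counted. The median difference was 0.09 over the 9 and 0.01 over all.

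Matches to AGATAA, the core that GATA factors bind, are shown for these regions because GATA1-ER is the factor that was switched on. Up to 2 matches nearest the centre of each region are given with 10 bases on each side (GRCm38, 5′ to 3′ on the strand of the match, the match in capitals).
Nprl3 body, chr11:32245747-32245772, plus strand: ctgcaacaggAGATAAatgctcctgc
Nprl3 body, chr11:32245850-32245875, minus strand: tgcaggggtgAGATAAgcttgcacac
Nprl3 body, chr11:32251075-32251100, plus strand: ttgaacgagcAGATAActaagccaag
Nprl3 body, chr11:32250009-32250034, minus strand: aggcaatttcAGATAAtgctctaagt
Nprl3 body, chr11:32256313-32256338, minus strand: ctggtctcttAGATAAgaggcaacac
Nprl3 start, chr11:32269124-32269149, minus strand: gtgacgggacAGATAAggcctggcac
Nprl3 start, chr11:32265306-32265331, plus strand: aaggccttgcAGATAAggaaactcag
From the most distant region to the Nprl3 start, the whole regions held 5, 2, 1 and 6 matches. In the central 1000 bp, 3 of the 4 regions held at least 1, and so did 48.5% of the 19778 H3K27ac regions of that length or more. A match is a string of letters and not a measured binding site.

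The most distant region (chr11:32242420-32248671, -38.0 kb, 7.2% exonic) was present in all 10 lists. It measured 5678 and 4585 bp at 0 h and 5696 and 4146 bp after 24 h (limma difference -0.07 ± 0.17 SE, adjusted p = 0.91). The middle region (chr11:32249549-32252204, -32.6 kb) was covered in 2 lists, 1909 bp in 1 list at 2 h and 2655 bp in 1 list at 12 h, so no time point had it in both lists.

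The nearer region (chr11:32255026-32257985, -27.0 kb, 15.2% exonic) was covered over less length at 0 h than at any later time. It was 1310 bp in 1 list at 0 h and had no peak in the other. It measured 2254 and 1667 bp after 2 h, 1735 and 2172 bp after 6 h, 2130 and 2605 bp after 12 h, and 2726 and 2659 bp after 24 h. All 8 lists after β-estradiol were longer than both lists at 0 h, and the 2 lists at 24 h were the longest. The difference of 2.40 ± 0.83 (SE) did not pass the test (limma adjusted p = 0.16), and it rested on the 0 h list without a peak: without the other 0 h list it was 3.85 (adjusted p = 0.0019), and without that list itself 0.94 (adjusted p = 0.098). Its score stood at the 11.4 percentile of its list in the 1 list at 0 h and at the 39.6 percentile in both lists at 24 h.

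At the Nprl3 start the region (chr11:32263578-32271049, -16.2 kb) extended on both sides of the promoter. Its H3K27ac peak was 7058 and 6519 bp at 0 h, 4869 and 6637 bp after 2 h, 5345 and 5288 bp after 6 h, 5215 and 5245 bp after 12 h, and 7472 and 6966 bp after 24 h. It was shorter in all 4 lists at 6 and 12 h than in the 4 lists at 0 and 24 h. The edge inside the gene carried most of this, reaching 3736 and 3199 bases past the start at 0 h, 2193 and 2214 bases at 12 h, and 4129 and 3854 bases at 24 h. The test over time points did not pass after adjustment (unadjusted p = 0.048, limma adjusted p = 0.28), but did without either list at 2 h (0.043 without replicate 1, 0.028 without replicate 2). Within its lists the peak ranked higher when shorter, at the 70.9 to 73.8 percentile at 6 and 12 h and the 37.6 to 49.7 percentile at 0 and 24 h.

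One H3K27ac region spanned Hba-a1 and Hbq1b (chr11:32280798-32288980). Its length was 7248 and 5298 bp at 0 h, 4761 and 4240 bp after 2 h, 4455 and 5002 bp after 6 h, 4946 and 7021 bp after 12 h, and 8183 and 7350 bp after 24 h. The 2 lists at 24 h were the longest, and the 0 h lists overlapped those at 12 h. The difference of 0.31 ± 0.20 (SE) did not pass (limma adjusted p = 0.47). Nor did the test over time points after adjustment (unadjusted p = 0.044, limma adjusted p = 0.27). On the Hbq1b side, the window of that gene was covered over 3206 and 1242 bp at 0 h, 883 and 911 bp after 2 h, and 4000 and 3370 bp after 24 h (difference 0.81 ± 0.55, adjusted p = 0.61). Hba-a1's own window was covered whole in 9 of 10 lists, which leaves no room for an increase to show. The score of the peak over Hba-a1 and Hbq1b did not follow its length. It stood at the 14.6 and 27.3 percentile of the list at 0 h and at the 13.0 and 27.6 percentile at 24 h. At 2 and 6 h it stood at the 33.3 to 46.4 percentile, and at 12 h at the 47.0 and 28.3 percentile.

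At Hba-a2 the H3K27ac region (chr11:32292054-32298086) was 2574 and 2392 bp at 0 h, 2416 and 2305 bp after 2 h, 2324 and 2507 bp after 6 h, 2240 and 2713 bp after 12 h, and 6033 and 3317 bp after 24 h. Both lists at 24 h were longer than the other 8, but they differed widely from each other (4675.0 ± 1920.5 bp against 2483.0 ± 128.7 bp at 0 h). The test over time points did not pass after adjustment (unadjusted p = 0.045, limma adjusted p = 0.28). The difference of 0.80 ± 0.25 (SE) did not pass either (limma adjusted p = 0.12). Without replicate 2 at 24 h it was 1.22 (adjusted p = 0.0059), and without replicate 1 at 24 h 0.39 (adjusted p = 0.20). Of this region, 25.7% of the 75-base stretches occur elsewhere in the genome. The score of its peak stood at the 50.8 and 48.1 percentile of the list at 0 h. At 24 h it stood at the 40.9 percentile for the peak of 6033 bp and the 65.3 percentile for that of 3317 bp.

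**Figure D3:**
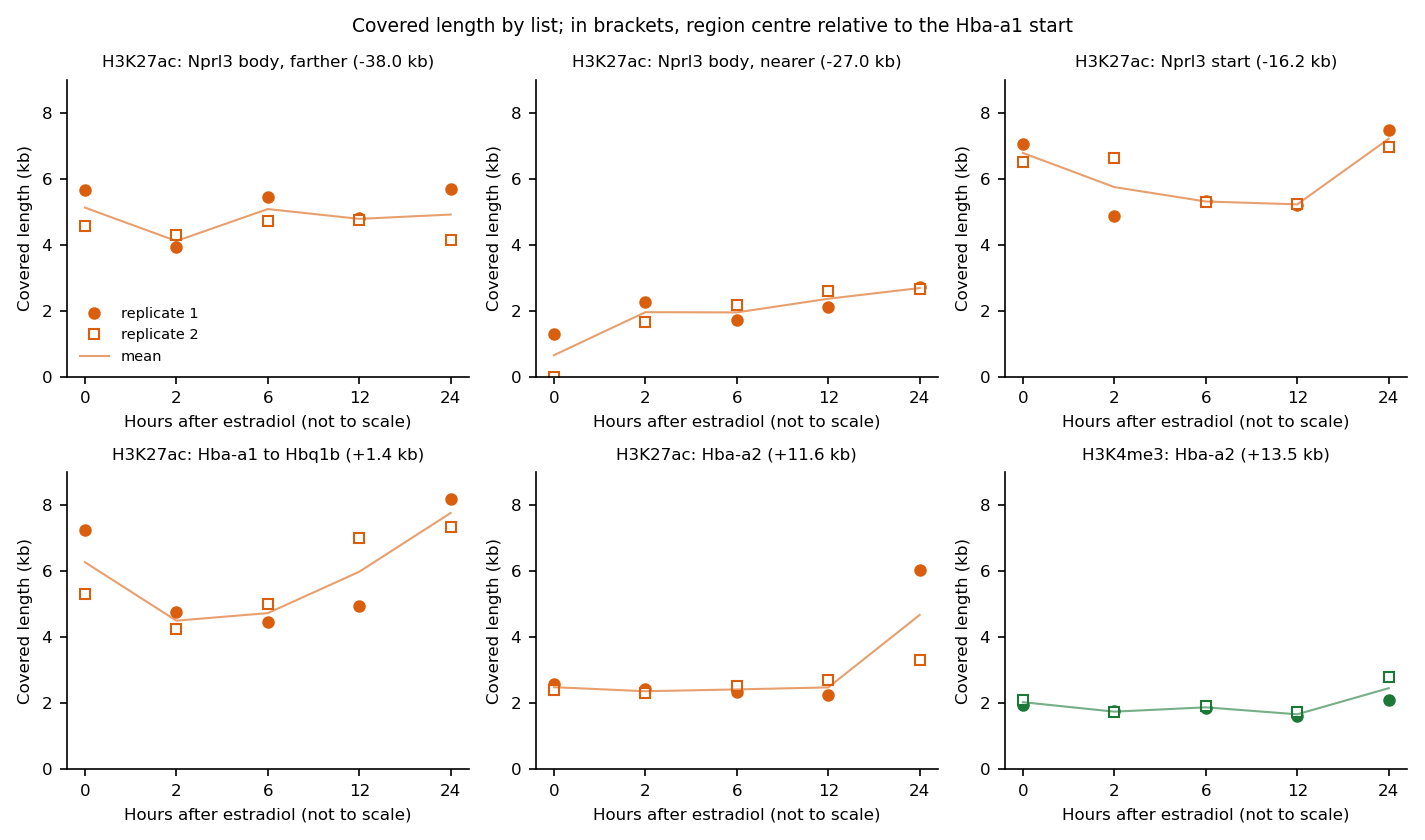
Covered length in kb of the H3K27ac regions of Nprl3, Hba-a1 to Hbq1b and Hba-a2, and of the H3K4me3 region of Hba-a2, by hours of β-estradiol. Points are single lists (filled, replicate 1; open, replicate 2) and lines their means; the nearer Nprl3 region was 0 or 1310 bp before treatment and 2726 and 2659 bp after 24 h, and the Hba-a2 H3K27ac points at 24 h lie at 6033 and 3317 bp.

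The H3K27ac regions of the remaining neighbours were not called. Snrnp25 measured 1834.0 ± 168.3 bp in untreated cells and 2225.0 ± 195.2 bp after 24 h (limma difference 0.25 ± 0.10 SE, adjusted p = 0.20), and Mpg 1393.5 ± 221.3 and 1300.0 ± 265.9 bp (adjusted p = 0.85). By promoter window, 0 of the 7 genes tested were called by limma at 24 h against 0 h (background 1.54% of 9583 promoters) or at any time point (1.36%). The Nprl3 window was covered whole (4000 bp) in all 10 lists, and the Hba-a1 window in every list at 0 and 24 h. Neither could therefore be called longer at 24 h. At an unadjusted p under 0.05, 2 (Snrnp25 and Hba-a2) passed the first and 1 (Hba-a2) the second, where 13.8% and 11.7% of all promoters did. The Hba-a2 window had the lowest p, with 2574 and 2392 bp covered at 0 h and 3598 and 3317 bp after 24 h (difference 0.45 ± 0.10, adjusted p = 0.12).

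The beta-globin genes, which encode the other chains of hemoglobin, were measured the same way for comparison. The H3K4me3 window of the adult gene Hbb-bs was covered over 2119 and 2170 bp at 0 h and 2490 and 2549 bp after 24 h (limma difference 0.21 ± 0.06 SE, adjusted p = 0.42). For H3K27ac it was covered over 2208 and 2486 bp at 0 h and 3315 and 3296 bp after 24 h (difference 0.46 ± 0.13, adjusted p = 0.21). At both Hba-a2 and Hbb-bs the H3K27ac window was longer in both lists at 24 h than in both at 0 h, and neither was called. The share of all promoters with lists in this order was not counted. The other adult gene, Hbb-bt, had H3K4me3 in all 10 lists and H3K27ac in none. The embryonic gene Hbb-y had neither mark, as was seen for embryonic Hba-x, and the early genes Hbb-bh1 and Hbb-bh2 had no H3K4me3. Hbb-bh1 did have a small H3K27ac overlap, 479 to 676 bp in 9 lists.

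The third question was whether CTCF occupancy of the locus differed between 0 and 24 h. The same 13 sites were found at both times, none gained and none lost. Over the genome, 92.1% of the peaks at 0 h overlapped a peak at 24 h, and 73.3% of those at 24 h overlapped one at 0 h. With 1 list per time there is no replicate check and no test, and values are given side by side. Of the 13 sites, 8 overlapped one of the 10 genes, 5 met an H3K27ac peak in at least 1 list, and 7 met neither histone mark.

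Sites lay on both sides of the globin genes. Those with the highest scores in their lists were at +37.8 kb beyond Hbq1a (95.6 percentile at 0 h, 99.7 at 24 h, rank 107 of 41473) and at Hbq1b (+3.2 kb, 90.6 and 96.6 percentile). The site at Hbq1a (+16.1 kb) stood at the 88.1 and 87.2 percentile, the one farthest on the other side (-121.2 kb) at the 88.2 and 87.7 percentile, and the one in the body of Rhbdf1 (-66.5 kb) at the 83.7 and 93.4 percentile. Inside Nprl3, 3 sites lay at -46.1, -44.8 and -36.2 kb with percentiles of 44.6, 67.7 and 70.2 at 0 h and 55.2, 79.4 and 69.9 at 24 h. The site at -36.2 kb lay inside the most distant H3K27ac region of Nprl3.

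The values of the 2 lists lay farthest apart at the 2 sites beside the Il9r and Snrnp25 promoters. Percentiles were taken in lists of unequal length (33193 and 41473 peaks), so a difference between them is not a change measured at a site. The site just upstream of Il9r (chr11:32200831-32201685 at 0 h, -82.3 kb) stood at the 3.8 and the 44.1 percentile, and the one over the Snrnp25 start (chr11:32204845-32205503 at 0 h, -78.3 kb) at the 16.0 and the 58.7 percentile. Their scores at 0 h, 53.13 and 64.53, were near the lowest score of that list (50.01). Of the 4703 shared CTCF peaks over the genome at or under the 20 percentile at 0 h, 88.6% stood higher at 24 h, with a median difference of 21.6 points, and 15.8% stood at least 40 points higher. Of the 13 sites, 9 stood at a higher percentile at 24 h and 9 had a longer peak, near the 67.5% and 68.6% of the 30582 peaks shared over the genome.

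**Figure D4:**
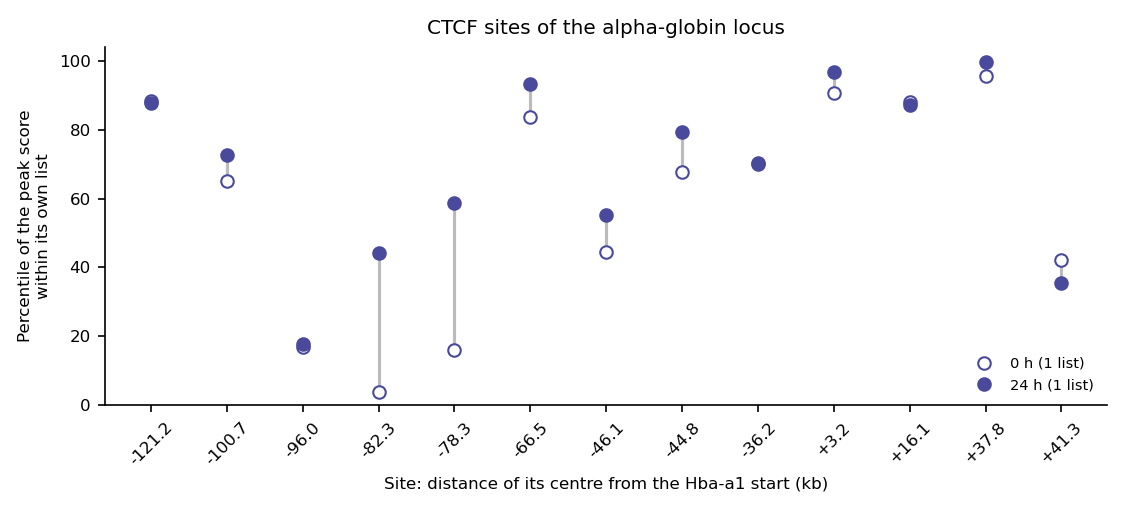
Percentile of each CTCF peak's score within its own list at 0 h (open) and 24 h (filled), for the 13 sites ordered by distance from the Hba-a1 start in kb. There is 1 list per time and hence no error, and the lists differ in length (33193 and 41473 peaks); the points lie farthest apart at -82.3 kb (3.8 and 44.1) and -78.3 kb (16.0 and 58.7).

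Sequences matching part of the CTCF core, AGNNGGCNC on either strand, are shown for 4 of the higher-ranked sites on either side of the globin genes, in the form used above (10 bases on each side, 5′ to 3′ on the strand of the match). These 4 were picked among the matches after the sequences were seen. Those at Hbq1b and Hbq1a lay 444 and 422 bases from the centre of the peak at 0 h, outside its central 300 bp, and other matches lay nearer.
Rhbdf1 body, chr11:32217027-32217055, plus strand: aatgaccacgAGGTGGCGCcaactgccaa
Hbq1b promoter, chr11:32286922-32286950, minus strand: agaggccgccAGGGGGCGCtgcatcgttc
Hbq1a promoter, chr11:32300027-32300055, minus strand: agaggccgccAGGGGGCGCtgcatcgttc
Beyond Hbq1a, chr11:32321325-32321353, minus strand: gtgggccccaAGGTGGCGCcactggcttt
The 2 theta promoters carried the same 29 letters. Over whole peaks, 7 of the 13 sites held a match, the 4 sites shown held 4 or 5 each on both strands, and the match nearest the centre was on the plus strand at 5 sites and on the minus strand at 2. In the central 300 bp, 4 of 13 sites (30.8%) held one, below the 41.4% of all 33193 CTCF peaks at 0 h, so the letters are not particular to these sites.

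No promoter likeness could be given for Il9r, Hba-x or Hba-a1. The rule asked for a peak in at least 3 lists and an SD of log2 covered length above 0.3. The SD was at most 0.08 for Il9r and Hba-a1 in either mark, and Hba-x had no peak.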

How the data were processed

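The 22 lists held the peaks of H3K4me3 (10), H3K27ac (10) and CTCF (2). For both histone antibodies the authors mapped reads to mm10 using Bowtie2, retained those with a unique position, and ran MACS on each library without its model step. Version, control and threshold, and the caller's settings for CTCF, are not given in the sources used here. The sample descriptions name a human build, but positions fitted the mouse genes. The deposited score of each peak, a multiple of -log10 of the p-value to judge by its floor of 50, was used only to rank or filter. No counts are held, so depth and the precision it gives are unknown. According to a figure legend of the study, its ChIP-seq replicates came from independent experiments, and CTCF had no replicate.

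Groups came from sample titles. Peaks of a mark were merged where they touch. The length covered per region, or within 2 kb of the start of the best APPRIS transcript (GENCODE M21), was compared on the scale log2(covered bp + 200) by limma (lmFit, then eBayes with its trend option) where at least 2 lists had a peak. This scale understates changes of short regions. The fit took 1 mean per time point, with Benjamini-Hochberg adjustment over all features tested, and the step was tested on simulated data. Peaks that come and go depart from the noise that limma assumes. CTCF overlap meant at least 1 bp. Named were all genes and regions of the interval and 5 beta-globin genes. Sequences came from RefSeq (GRCm38.p6) and the study's guide list. The members, gene lists, rules and alternatives were chosen with earlier results of these data known. Alternatives were other pseudocounts, minimum lists, merging, windows, scaling, score filters, a 4-list fit, a replicate block, a 10 kb flank, overlap of at least 50%, and leaving out each list. R 4.3.3 with limma 3.58.1 and Python 3.11.15 with numpy 2.4.6, pandas 2.3.3, numba 0.67.0 and matplotlib 3.10.9 were used.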

Additional observations from a re-analysis of the deposited data

How the results depend on the processing

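The Il9r H3K4me3 region stayed called at 24 h against 0 h in all 10 fits that left out 1 list (log2 difference 1.05 to 1.11, adjusted p 0.00042 to 0.029, limma) and in the 9 other fits that contained it (0.89 to 1.13, adjusted p 0.0017 to 0.02). Leaving out peaks under the pooled median score, which removes that peak by construction, left 0 H3K4me3 regions of the locus called in either test, 8 CTCF sites shared in place of 13, and 10 histone regions in place of 17. The covered length was then 6.2 kb at 0 h and 5.78 kb at 24 h for H3K4me3 (13.8 and 16.9 kb with all peaks). For H3K27ac it was 12.2 and 7.26 kb (31.2 and 37.8 kb with all peaks). The direction thus turned for both marks, under a score cut shared by lists whose scores cannot be compared. The cause was not tested. With windows of 5 kb each side, 1 H3K4me3 promoter, Il9r, was called in each test. Leaving out 1 list gave 0 to 1 H3K4me3 regions called at any time point (0 without either list at 24 h), 0 to 1 H3K27ac regions called at 24 h against 0 h, 0 to 1 at any time point, and 0 to 1 gained or lost (the nearer Nprl3 region, without replicate 1 at 0 h). For 24 h against 0 h, 29 regions and promoters were each followed over the alternative settings, 576 pairs of a feature and a setting. Pairs share fits and are not independent. Of the 576 pairs, 573 kept their side of the threshold, 3 newly passed it, and 0 were lost. The sign changed in 22 pairs, with neither value past the threshold, at 14 of the regions and promoters.

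Replicate numbers did not pair the lists: correlations of same-numbered deviations over 10 pairs of time points ran from -0.0758 to 0.0318 for H3K4me3 and from -0.0293 to 0.0168 for H3K27ac. With the replicate number as a block, 1 H3K4me3 region and 0 H3K27ac regions of the locus were called, as without it, and the count over all H3K4me3 regions was 146 in place of 235. Fitting only the 4 lists of 0 and 24 h called 734 H3K4me3 regions over the genome in place of 235 and 2339 H3K27ac regions in place of 1327. With peak lists alone, depth limits whether a weak site is listed, and only 2 lists per time point bound the spread.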
